A study of Drosophila melanogaster with 2 samples.

Results

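The vacuolar ATPase (V-ATPase) genes of Drosophila melanogaster were examined for binding of Hr51, a nuclear receptor of the NR2E group. They were taken as the protein-coding genes whose symbol starts with Vha in the Ensembl annotation of dm6, which gave 33 of the 13945 genes on the main chromosomes. Binding was measured by chromatin immunoprecipitation and sequencing (ChIP-seq) in whole embryos of mixed sex, aged 14 to 16 h. The flies came from 1 transgenic line that makes Hr51 with green fluorescent protein at its C terminus, and an antibody against that tag was used. There were 2 samples of 1 group, biological replicates 1 and 3, so no conditions were compared. The level of the tagged protein relative to native Hr51 is not stated in the labels, and whole embryos mix all tissues.

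The V-ATPase is a rotary pump that uses ATP to move protons into lysosomes, endosomes and secretory vesicles and, in some epithelia, across the plasma membrane. Its cytosolic V1 sector (subunits A to H) hydrolyses ATP, and its membrane V0 sector (subunits a, c, c″, d and e) carries the protons. In flies several subunits have more than 1 gene: a widely used main copy and paralogs, many of which are known for narrower expression. The V-ATPase genes of flies and mammals are known targets of the Mitf/TFEB factors, which bind E-box sequences.

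A gene was said to have a promoter peak when a summit lay at most 1000 bp from any of its transcription start sites (TSSs), in the list of 7229 peaks that the authors kept by an irreproducible discovery rate procedure (the reproducible list). Of these peaks, 151 overlapped no peak in the replicate 1 list and 45 none in the replicate 3 list. The 2 replicate lists and a list called on pooled reads hold 30000 peaks each and include weak calls. Each promoter peak of a V-ATPase gene in the reproducible list had the same rank and signal in the pooled list. The reproducible and pooled lists are thus not independent. Signal is the authors' score per peak. As no scale is stated for it, it was only ranked and compared within a list. Depth is unknown.

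In the reproducible list, 5 of the 33 V-ATPase genes had a promoter peak (15.2%, 95% Wilson interval 6.65 to 30.9%), against 23.3% of all protein-coding genes. With all pooled peaks the family had the higher share instead (45.5%, against 38.3%). The 5 were Vha100-2, Vha14-1, Vha68-2, Vha55 and VhaAC45. All 5 belonged to the 14 main subunit genes (35.7%, 16.3 to 61.2%), and none of the 19 numbered or lettered paralogs had one (0%, 0 to 16.8%). By sector, the peaks lay at 3 of 13 V1 genes (23.1%), 1 of 18 V0 genes (5.56%) and 1 of 2 accessory genes. Intervals cover counting error over genes only. Genes are not replicates and the family is taken whole, so the intervals test no difference between classes or from all genes. In the highest 7229 peaks of replicate 1, promoter peaks lay at 6 main genes and no paralog, against 24.0% of all genes. In those of replicate 3 they lay at 5 main genes and 1 paralog, against 24.9%. The split rests on which copy is called main, a choice made from general knowledge that is uncertain for Vha68-2, Vha100-2 and VhaM9.7-b. Taking the copy numbered 1 or lettered a of each subunit instead, 3 of 14 main genes and 2 of 19 other copies had a promoter peak, since Vha100-2 and Vha68-2 then count as other copies.

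**Figure D1:**
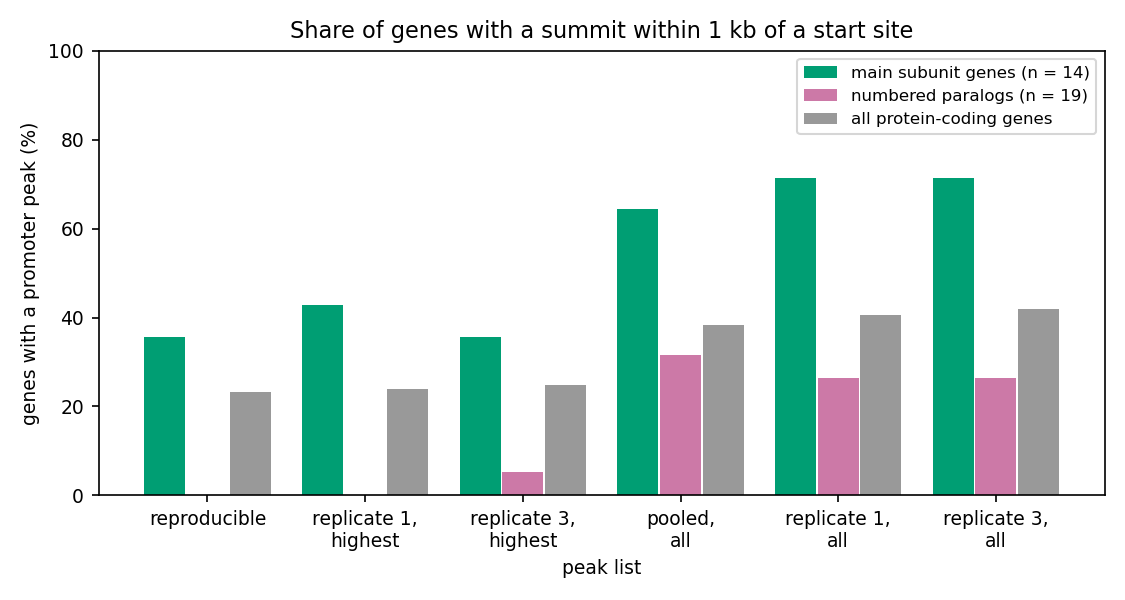
Share of genes with a promoter peak (%, vertical axis) among 14 main subunit genes, 19 numbered paralogs and all 13945 protein-coding genes, in 6 peak lists; "highest" means the 7229 peaks of highest signal in a replicate. The main genes stand above the paralogs in each of the 6 lists, and the paralogs are at 0 in the reproducible list and among the highest peaks of replicate 1.

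Gene structure and neighbours moved with the split between main genes and paralogs. Main genes had on average 1.64 TSSs and paralogs 1.16, and the median gene length was 2907 and 1371 bp. Among all genes a promoter peak was found at 16.8% of those with 1 TSS, 35.0% of those with 2 and 55.9% of those with more. Among genes with 1 TSS, 2 of 9 main genes and 0 of 16 paralogs had one. Another protein-coding gene started within 1000 bp of 9 of the 14 main genes and 6 of the 19 paralogs, against 42.9% of all genes. With such a neighbour, 4 of the 9 main genes and 0 of the 6 paralogs had a promoter peak (31.1% of all genes). Without one, 1 of 5 main genes and 0 of 13 paralogs did (17.4% of all genes). The part of TSS number, length and neighbours in the split was not tested.

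The strongest peak in the family lay at Vha100-2, which encodes a form of subunit a, the large membrane subunit that directs the pump to its compartment. The summit was on 3R in the peak from 18397030 to 18397443, 282 bp upstream of the internal TSS of Vha100-2. Its signal was 1254 in the reproducible list (rank 395), 589 in replicate 1 (rank 342) and 681 in replicate 3 (rank 450), so both replicates placed it high. Among the 3247 genes with a promoter peak, 88.8% had a weaker one. The summit lay in an intron of Vha100-2 and, on the other strand, in the 5′ UTR of Vti1b, 215 bp inside that gene. Vti1b, named for a SNARE of vesicle fusion, starts nearer to this summit than Vha100-2 does, and the peak cannot be given to either gene. A weaker peak (18399174 to 18399583, signal 187, rank 5312) had its summit 210 bp upstream of the outer TSS of Vha100-2, in an intron of Vti1b. It had a signal of 120.5 in replicate 1 and 67.9 in replicate 3. A TSS of Vti1b lay 330 bp from this summit in the other direction, so this peak too cannot be given to either gene.

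Vha14-1, the main gene of subunit F in the central stalk, had the next strongest peak, but the summit lay behind the gene. It was on 2R in the peak from 15678979 to 15679410, 896 bp downstream of the TSS and 238 bp past the end of the short gene. The signal was 1180.4 (rank 447), with 450.3 in replicate 1 (rank 584) and 721 in replicate 3 (rank 396). The nearest start was that of Gmppa, a gene for a GDP-mannose pyrophosphorylase subunit, 232 bp downstream of the summit. Given only to its nearest TSS, the peak leaves the family, as does the strongest Vha100-2 peak (215 bp from Vti1b, 282 bp from Vha100-2). Vha100-2 then keeps only its weaker peak of signal 187. By this rule 4 genes had a promoter peak, against 18.0% of all genes. Within 500 bp there were also 4, against 19.6%, and counting only the most upstream TSS of each gene there were 5, against 21.1%. This was the called member closest to the 1000 bp limit. Just outside it were Vha14-2, the other subunit F gene (summit 1019 bp upstream, signal 193), and Vha16-1 (1035 bp downstream, signal 183). Within 2000 bp, 6 of 14 main genes and 2 of 19 paralogs (Vha14-2 and Vha36-3) had a summit, against 29.4% of all genes.

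**Figure D2:**
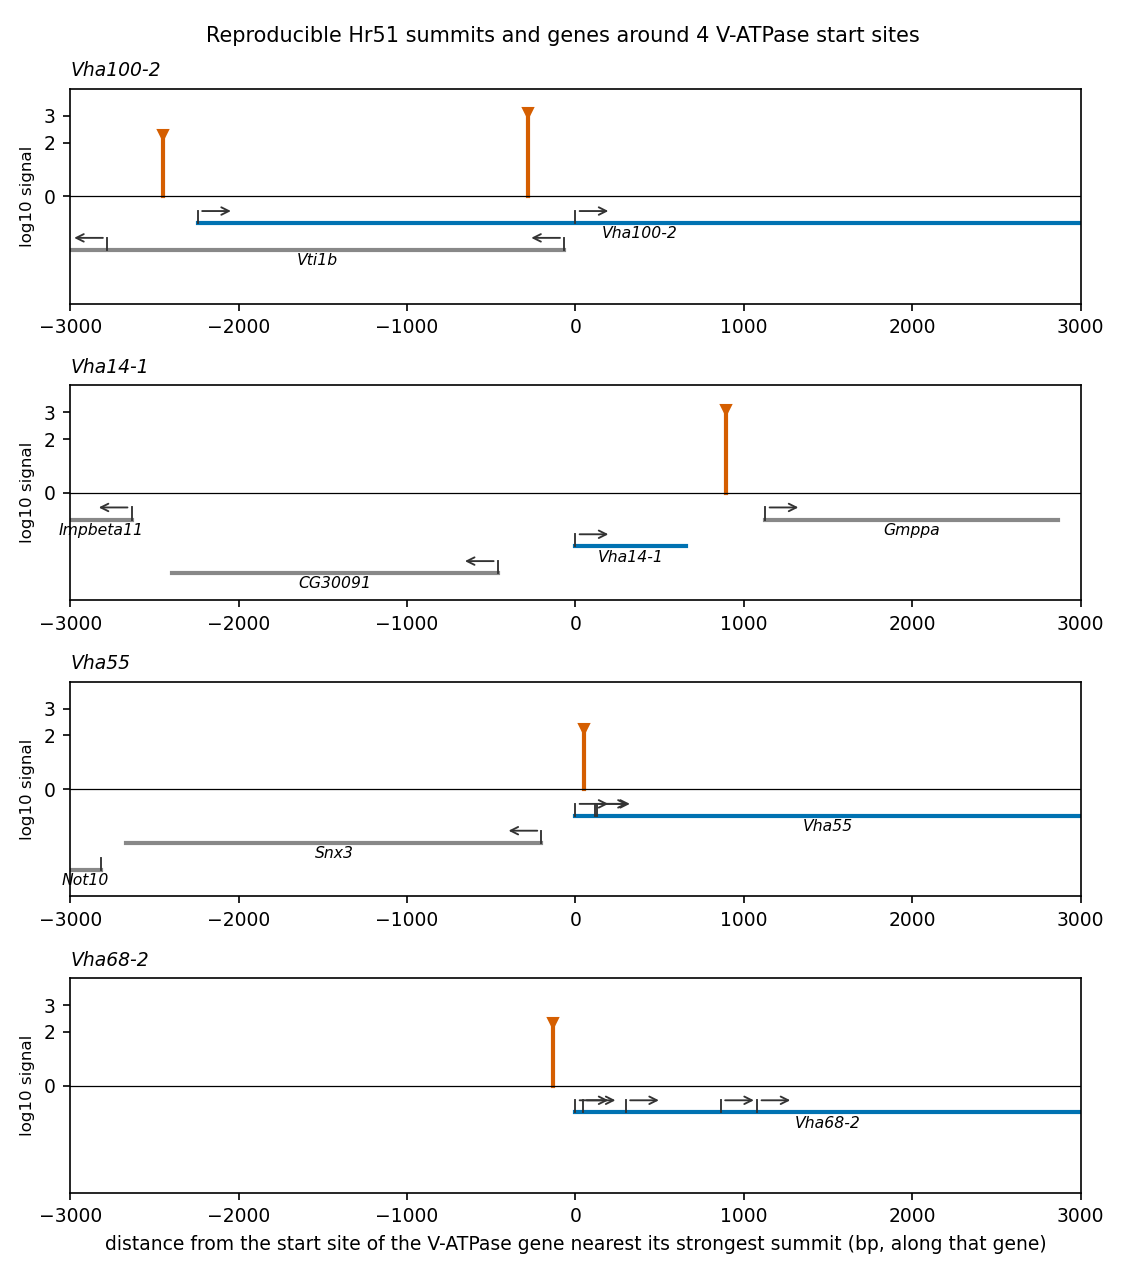
Genes (blue, the V-ATPase gene; grey, other protein-coding genes; arrows, TSSs) and reproducible Hr51 summits (orange, height in log10 signal) within 3000 bp of a TSS of 4 members; the horizontal axis is the distance in bp along the V-ATPase gene. The Vha100-2 and Vha14-1 summits of signal 1254 and 1180.4 lie by the starts of Vti1b and Gmppa, while the Vha68-2 summit has no other gene start near it.

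The peaks at the catalytic head were weaker. Vha68-2 encodes the main subunit A, which binds and hydrolyses ATP, and Vha55 encodes subunit B, its partner in the head. The Vha68-2 summit (2L, 12974118 to 12974253) lay between genes, 135 bp upstream of the gene's outer TSS. Its signal was 216 (rank 4548), with 63.8 in replicate 1 (rank 8329) and 145 in replicate 3 (rank 3847), so it fell below the highest 7229 peaks of replicate 1. It was the only one of the 5 genes whose peak had no TSS of another protein-coding gene within 1000 bp. The share of all genes with such an unshared peak was 11.6%. The other subunit A genes, Vha68-3 and Vha68-1, had no promoter peak in any of the 4 lists. Vha68-1 starts beside mTor, the kinase gene of the nutrient-sensing complex at the lysosome, which also had none.

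The Vha55 summit (3R, 12627572 to 12627981) lay 52 bp downstream of the outer TSS in the 5′ UTR. Its signal was 176 (rank 5599), with 77.0 in replicate 1 (rank 6769) and 112 in replicate 3 (rank 4968). Snx3, a sorting nexin gene of endosomes, starts 254 bp away in the other direction.

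The bases at these summits are shown for the sequence findings given next. Each is written along its V-ATPase gene with the searched motifs in capitals. The 2 summits in 5′ UTRs are shown as 30 bases and the others as the summit with 50 bases on each side. VhaPPA1-1, which just missed the reproducible list, is shown for comparison. Its stretch and the 30 bases at the internal Vha100-2 summit hold none of the searched motifs.
Vha68-2 (chr2L:12974137-12974237, dm6, plus strand): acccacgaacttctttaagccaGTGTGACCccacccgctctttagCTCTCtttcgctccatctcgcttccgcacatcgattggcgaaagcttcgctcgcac
Vha55 (chr3R:12627763-12627792, dm6, minus strand): gtgacgggtcatgtgacggCACGTGacgtc
Vha100-2, outer TSS (chr3R:18399329-18399429, dm6, minus strand): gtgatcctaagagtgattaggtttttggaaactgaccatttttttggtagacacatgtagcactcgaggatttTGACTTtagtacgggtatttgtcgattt
Vha100-2, internal TSS (chr3R:18397196-18397225, dm6, minus strand): tgttcttattgcaatttgggaagtcttaca
VhaPPA1-1 (chr3R:14904083-14904183, dm6, minus strand): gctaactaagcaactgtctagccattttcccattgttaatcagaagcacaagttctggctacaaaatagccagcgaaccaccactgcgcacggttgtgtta

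The Vha55 summit held the E-box CACGTG, starting 4 bp downstream of the summit. CACGTG was present within 50 bp of the summit at 0.683% of the 3073 reproducible summits within 1000 bp of a protein-coding TSS, and at 1 of the 6 summits of V-ATPase genes. TCACGTGA, the core of the CLEAR element that Mitf/TFEB factors bind, was at none of the 6 and at 0.0325% of the 3073. The Vha68-2 summit held GGTCACAC, the core of promoter motif 1, here on the minus strand. That motif was at 0.618% of promoter summits. GAGAG, the element of GAGA factor, was at 3 of the 6 summits (internal Vha100-2, Vha68-2 and VhaAC45), against 8.59%. The Vha100-2 match lay outside the 30 bases shown. AAGTCA, the core that NR2E receptors prefer, was at 1 of the 6 (the outer Vha100-2 summit), against 5.43%. AGGTCA, the core of many nuclear receptor sites, TATCGATA (the DRE element) and CGATA (bound by BEAF-32) were at none, against 1.99, 1.33 and 13.3%. CGATA is part of TATCGATA and CACGTG of TCACGTGA. Both strands were searched. A match is a description of the letters and not a binding site.

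The summits of the catalytic head genes were rich in G and C. GC content within 50 bp of the summit was 55.4% at Vha68-2 and 50.5% at Vha55, against a median of 29.7% over the 3073 promoter summits. Only 2.31 and 6.54% of promoter summits reached these values. Within 100 bp of the summit the shares were 4.46 and 5.96%. The other summits of the family had 29.7% (Vha14-1), 30.7% (internal Vha100-2), 34.7% (VhaAC45) and 37.6% (outer Vha100-2).

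**Figure D3:**
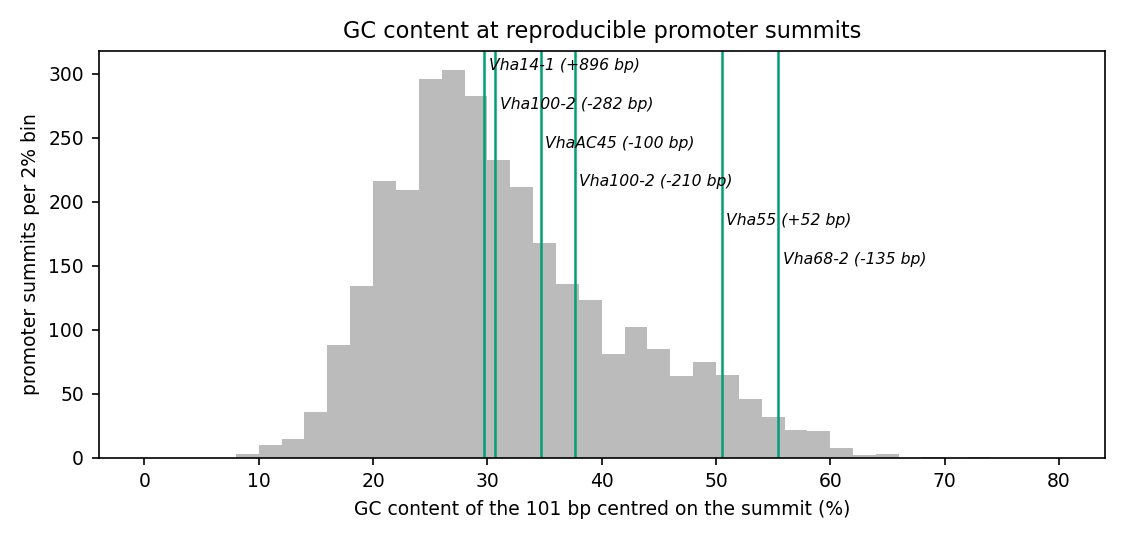
Histogram of the GC content (%, horizontal axis) within 50 bp of 3073 reproducible promoter summits (number per bin, vertical axis), with 6 summits of V-ATPase genes as green lines labelled with their distance from the TSS. The Vha55 and Vha68-2 lines lie in the high tail, at 50.5 and 55.4%, and the other 4 lie between 29.7 and 37.6%.

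Over the 300 bp promoter of each gene (250 bp before to 50 bp after its outermost TSS), the family held these motifs at shares that can be set beside those of all 13945 promoters. AAGTCA was in 8 of 33 (24.2%, against 16.2%), namely 5 main genes and 3 paralogs. CGATA was in 19 of 33 (57.6%, against 47.4%), with 11 main genes and 8 paralogs. GAGAG was in 9 (27.3%, against 29.7%), with 5 main genes and 4 paralogs. GGTCACAC was in 4 (12.1%, against 7.70%), with 3 main genes and 1 paralog. For CACGTG there were 3 (9.09%, against 4.20%), 1 main gene (Vha44) and 2 paralogs (VhaAC45RP and VhaM9.7-d). The CACGTG at the Vha55 summit lay outside this 300 bp promoter. AGGTCA was in 2 paralogs (6.06%, against 5.88%) and TATCGATA in 2 main genes (6.06%, against 9.36%). TCACGTGA was in 1 promoter, that of Vha44 (0.172% of all promoters), starting 48 bp upstream of the TSS.

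VhaAC45 encodes the accessory subunit Ac45, a glycoprotein of the V0 sector. Its summit (2R, 9207256 to 9207665) lay between genes, 100 bp upstream of the TSS. Its signal of 162 (rank 6076) was the lowest of the 5 genes, with 75.5 in replicate 1 (rank 6942) and 86.4 in replicate 3 (rank 6386). Gnptab, named for an enzyme that in mammals marks lysosomal hydrolases for sorting, starts 337 bp away in the other direction. Its relative VhaAC45RP had no promoter peak, but a reproducible summit of signal 261 lay 392 bp past its end.

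Over the 5 genes the median signal of the strongest promoter peak was 216, against 388 over the 3247 genes with a promoter peak. Of those genes, 24.0% had a weaker peak than Vha68-2, 13.3% a weaker one than Vha55 and 9.30% a weaker one than VhaAC45. The ratio of the medians was 0.556 in the reproducible list. For the genes of the reproducible list, taken by their signal in a replicate list, it was 0.455 in replicate 1 and 0.659 in replicate 3. Over all genes with a promoter peak in a replicate list, with 15 V-ATPase genes, it was 0.731 and 0.508. The V-ATPase genes thus had the lower median in each of these comparisons. The median position was -100 bp from the TSS (negative meaning upstream), against -170 bp over all genes with a promoter peak. The summits of Vha100-2, Vha68-2 and VhaAC45 were upstream, and those of Vha55 and Vha14-1 downstream, while 82.0% of all genes with a promoter peak had the strongest one upstream. All 6 promoter peaks of the family overlapped a peak in both replicates, with summits within 100 bp in each. The reproducible list was chosen on these replicates, so such overlap is in part built in.

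**Figure D4:**
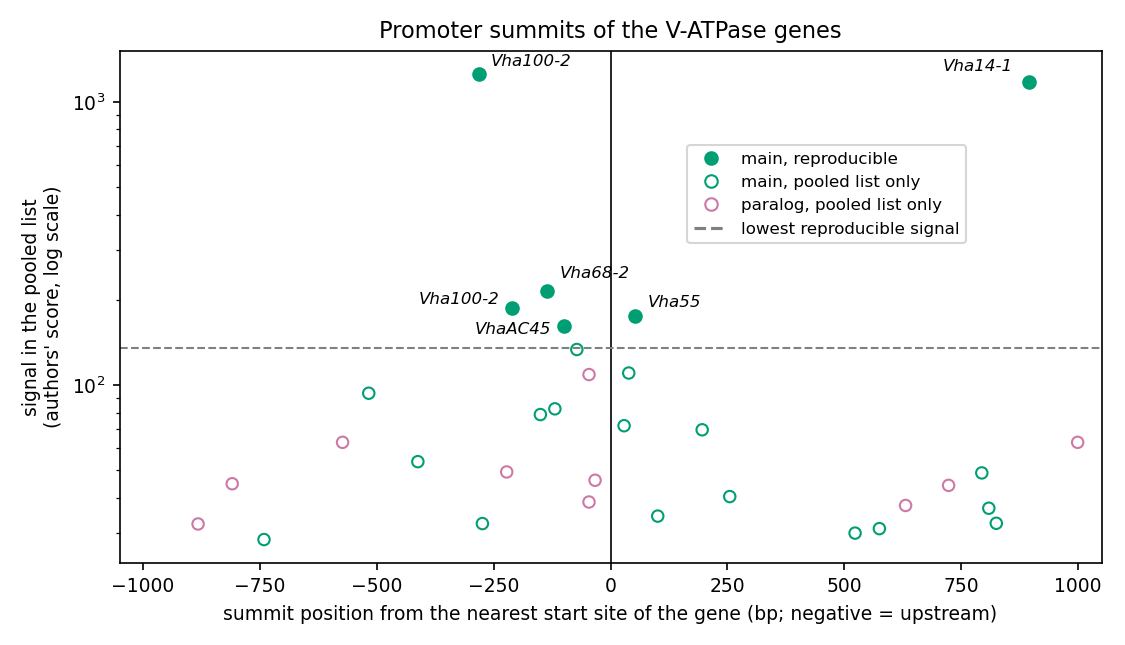
Position of every promoter summit of the V-ATPase genes in the pooled list (horizontal axis, bp from the nearest TSS of the gene, negative upstream) against its signal (vertical axis, log scale); filled points are in the reproducible list. The 6 filled points all belong to main genes, and the 2 highest lie 282 bp upstream and 896 bp downstream.

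The weaker peaks of the pooled list reached more of the family. With all 30000 pooled peaks, 15 of the 33 genes (45.5%) had a promoter peak, against 38.3% of all genes: 9 of 14 main genes and 6 of 19 paralogs. All peaks of replicate 1 gave 10 main genes and 5 paralogs (against 40.5% of all genes). All peaks of replicate 3 gave the same counts (against 42.0%). The median rank in the pooled list was 6076 for the 9 main genes and 16395 for the 6 paralogs.

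VhaPPA1-1, the main gene of the proton-carrying subunit c″, came closest to the reproducible list. Its pooled peak had rank 7319 and a signal of 134, just under the lowest reproducible signal of 135, with the summit 72 bp upstream of the TSS. It ranked 6340 in replicate 1 and 10878 in replicate 3. Vha13 (subunit G) followed with rank 8683 and a signal of 110.3, then Vha44 (subunit C) with rank 11424 and a signal of 82.5. Vha16-1, the main gene of the proton-carrying ring subunit c, had rank 12969 and a signal of 71.9. Their summits lay 39 bp downstream, 119 bp upstream and 29 bp downstream of a TSS. The Vha44 summit lay 4 bp from a start of Hmgs, the HMG-CoA synthase gene. Vha16-1 also held 2 reproducible summits in its intron, 1035 and 1658 bp downstream of a TSS, with signals of 183 and 146.

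Of the paralogs, VhaM9.7-c (subunit e) had the highest pooled peak, at rank 8795 with a signal of 109. It was found in replicate 1 (rank 7864) but not in replicate 3. The others were Vha16-2 and Vha16-3, which share 1 peak of signal 62.8 between their tandem genes, VhaAC39-2 (49.4), VhaAC45RP (46.1) and Vha100-5 (38.7). These ranked between 14601 and 22420.

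**Figure D5:**
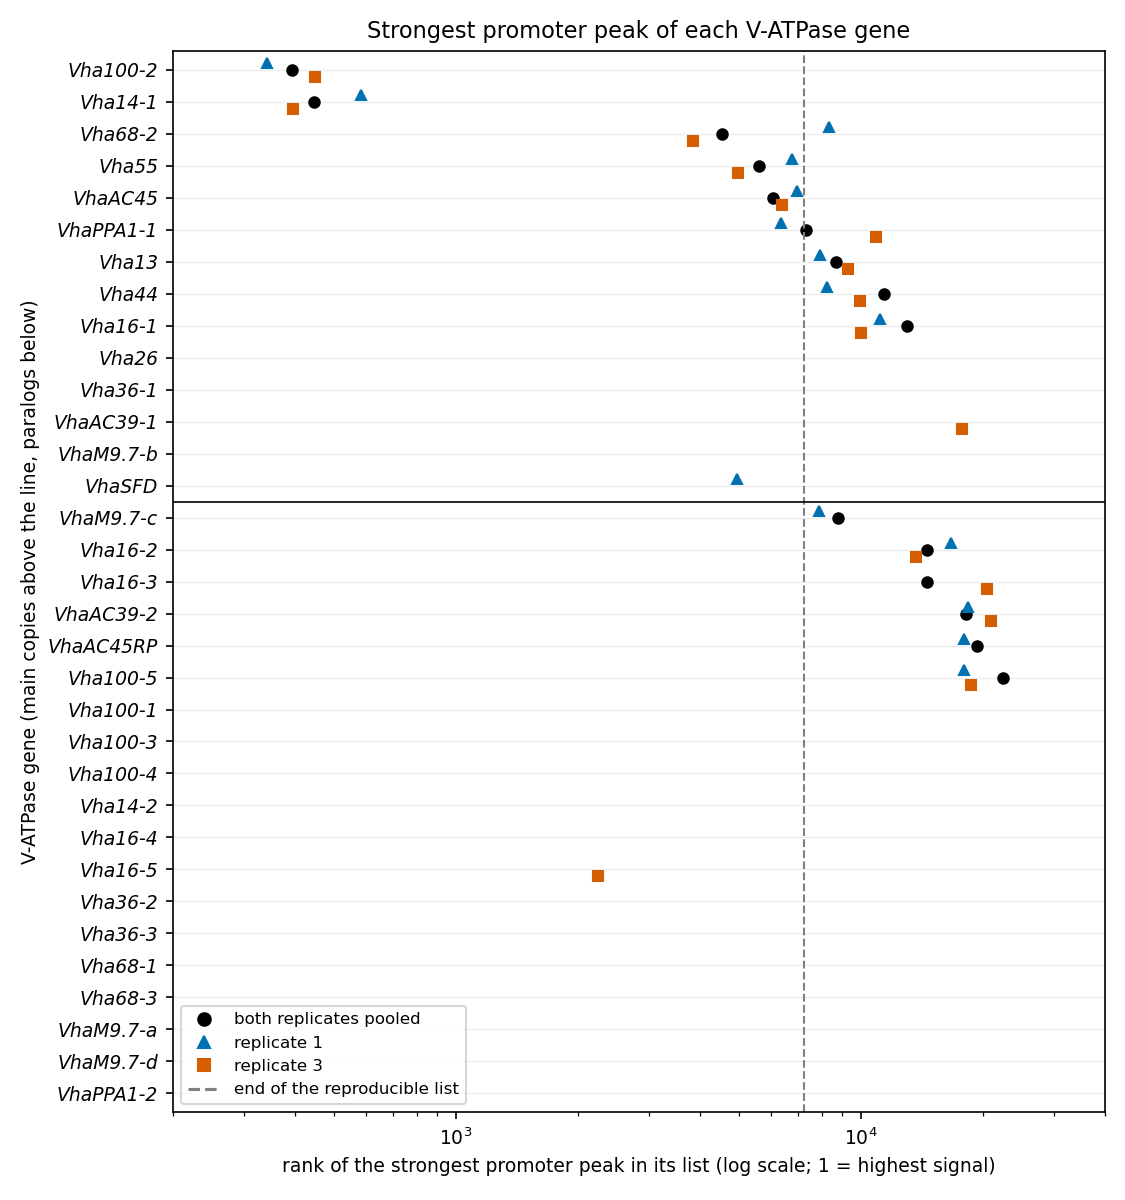
Rank of the strongest promoter peak of each of the 33 V-ATPase genes (horizontal log axis; 1 is the highest signal) in the pooled, replicate 1 and replicate 3 lists; a gene with no symbol has no promoter peak in that list. The median pooled rank is 6076 for the main genes with a peak and 16395 for the paralogs with one, and the dashed line marks rank 7229, where the reproducible list ends.

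Copies of 1 subunit can be set side by side in 8 families. In the reproducible list the main copy had the strongest peak in 3 families (A, F and a), and no copy had one in the other 5. In the pooled list the main copy led in 5 (A, F, a, c and c″), a paralog led in 2 (d and e), and subunit D had none. Replicate 1 gave 5, 2 and 1 in that order, and replicate 3 gave 5, 1 and 2. The lead changed with the replicate for subunit c, where Vha16-5 led in replicate 3 and Vha16-1 in replicate 1. It also changed for subunit d, where VhaAC39-2 led in replicate 1 and VhaAC39-1 in replicate 3.

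Of the main genes, 3 had no promoter peak in any of the 4 lists. These were Vha26 (subunit E), Vha36-1 (subunit D) and VhaM9.7-b (subunit e). Their nearest reproducible summits lay 9518, 24512 and 23567 bp from the TSS. VhaAC39-1 (subunit d) had only a weak peak in replicate 3 (rank 17723). The paralogs with none in any list were Vha100-1, Vha100-3, Vha100-4, Vha14-2, Vha16-4, Vha36-2, Vha36-3, Vha68-1, Vha68-3, VhaM9.7-a, VhaM9.7-d and VhaPPA1-2. Most protein-coding genes also lacked one: a promoter peak was found at 38.3% in the pooled list, 40.5% in replicate 1 and 42.0% in replicate 3. The share of all genes with none in any list was not computed.

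A pair of genes had a promoter peak among the highest 7229 of 1 replicate and none in the other replicate or in the pooled list. VhaSFD, the gene of subunit H, had a summit 110 bp downstream of its TSS in replicate 1, with a signal of 100.8 and rank 4951. Another lay 100 bp upstream (rank 6920). The nearest summit in replicate 3 was 6215 bp away. Vha16-5, a paralog of subunit c, had a summit 285 bp upstream of its TSS in replicate 3, with a signal of 234 and rank 2241, and 17 bp from the start of CG12299. Another lay 863 bp downstream (rank 4578), 109 bp from the start of Nup107. The nearest summit in replicate 1 was 14287 bp away. Of the highest 7229 peaks of replicate 1, 2.21% overlapped neither a replicate 3 nor a pooled peak, and of replicate 3, 4.04% overlapped neither a replicate 1 nor a pooled peak. These are shares of peaks, and the share of all genes with such a promoter peak was not computed.

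Summits anywhere in the gene or within 1000 bp of it were found for 8 of the 33 genes, against 30.4% of all genes. The 3 genes added to those with a promoter peak were Vha16-1, VhaAC39-2 and VhaAC45RP, and the 8 genes held 10 summits. The VhaAC39-2 summit (signal 269) lay 828 bp past its end in an intron of unk.

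A list of 40 lysosome and V-ATPase partner genes had promoter peaks at 16 (40.0%, 95% Wilson interval 26.3 to 55.4%), against 23.3% of all genes. The list was drawn up with earlier results of these data known and its genes are not replicates, so the interval is no test. Given only to the nearest TSS, the count was 10 of 40 (25.0%), against 18.0%. Without promoters shared with another gene it was 5 of 40 (12.5%), against 11.6%, and in the higher 3614 reproducible peaks 9 of 40 (22.5%), against 15.4%. The strongest were at Sesn, a nutrient-sensing gene (signal 2636), Lamtor3, of the complex that holds the mTOR kinase at the lysosome (1914), Vps33B, of vesicle tethering (1689), mtd, whose mammalian relatives bind the V-ATPase (1294), and Hexo2, a hexosaminidase gene (945). The others were CtsF (407), CtsL1 (383), Rheb (349), Rbcn-3B (275), Lamtor5 (223), Rbcn-3A (210), Vps39 (204), raptor (189), Nprl3 (182), Npc2a (177, with no promoter peak in replicate 1) and Lamp1 (167). Rbcn-3A and Rbcn-3B encode the rabconnectin pair that helps assemble the pump. Mitf, whose factor is known to act on V-ATPase genes, had no promoter peak in the reproducible list or in either replicate.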

How the data were processed

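Peaks came from the authors' deposited lists on dm6: 1 per replicate, 1 pooled and 1 reproducible list, made from the replicates and a control alignment per the deposited descriptions of the files. The peak caller and its settings are not given in the sources used here. Fragments were 200 to 800 bp, per the labels. Signal is the authors' value per peak. The deposited −log10 q-values were all at their ceiling in the reproducible list (7229 peaks) and were left aside. Summits were placed by the deposited position within each peak. TSSs came from Ensembl release 115 (same assembly as the RefSeq genome used for DNA; 74 of 74 V-ATPase transcripts read ATG at the coding start). Python 3.11.15, pandas 2.3.3 and scipy 1.17.1 were used, and the distance step was tested on simulated data. No test was run: counts and medians stand beside those over all protein-coding genes. Named genes are all members, the gene starts near their summits, and the partner genes with a promoter peak. Main copies were chosen from general knowledge and are uncertain for Vha68-2, Vha100-2 and VhaM9.7-b. The members and lists were chosen with earlier results of these data known. The symbol rule does not take in the accessory gene once called VhaM8.9. Alternatives changed distance, list, assignment and the choice of main copy.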

Additional observations from a re-analysis of the deposited data

How the results depend on the processing

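The 5 V-ATPase genes with a promoter peak (against 23.3% of all genes) became 8 at 2000 bp (29.4% of all genes). They became 15 with all pooled peaks (38.3% of all genes), all replicate 1 peaks (40.5%) or all replicate 3 peaks (42.0%). The count was 2 in the higher 3614 reproducible peaks (15.4% of all genes) and 1 without shared promoters (11.6%). At 500 bp (19.6% of all genes) and by nearest TSS (18.0%) there were 4, and with the most upstream TSS (21.1%) 5. The share of main genes was 35.7 percentage points above that of paralogs. It was 14.3 points above in the higher 3614 peaks, 7.14 without shared promoters, 45.1 with all peaks of either replicate and 10.9 with the copies numbered 1 or lettered a as main. No single setting tried turned its direction, but with those copies and without shared promoters together it was 0 of 14 against 1 of 19. With 1 replicate left out, the counts were 6 and 6 genes (against 24.0 and 24.9% of all genes) and the difference 30.5 to 42.9 points. The 16 partner genes (40.0%, against 23.3% of all genes) became 9 in the higher peaks (22.5%, against 15.4%), 10 by nearest TSS (25.0%, against 18.0%) and 5 without shared promoters (12.5%, against 11.6%), and 15 to 16 with 1 replicate left out. The signal ratio of 0.556 became 0.731 over the whole replicate 1 list. For the same 5 genes, the median position of -100 bp became -130 bp in replicate 1. Over the 15 V-ATPase genes with a promoter peak in the whole replicate 1 list, the median position was -19 bp (all genes -151 bp). For the 15 of replicate 3 it was -96 bp (all genes -165 bp). Within 100 bp of the summit, CGATA was at 2 of the 6 summits, against 27.8% of the 3073 promoter summits. Whole replicate lists, the signal of the same genes in each replicate and the settings for the partner genes were added after the data were seen. Depth is unknown, so an absent peak was not detectable under the authors' calling and does not show that Hr51 is absent. No paired analysis was possible because there is 1 group.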
